A study of Mus musculus with 48 samples.

Results

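Serine and glycine metabolism is represented here by 10 genes, chosen by symbol, among 24421 gene symbols in each of 6 tables of mouse astrocyte RNA-seq. Of these, Phgdh, Psat1 and Psph make serine from a glycolytic intermediate, and Shmt1 and Shmt2 exchange serine with glycine in the cytosol and in mitochondria. Srr turns L-serine into D-serine. Gldc and Amt belong to the glycine cleavage system, while Slc6a9 (the glycine transporter GlyT1) and Slc1a4 (the neutral amino acid transporter ASCT1) carry the products across the plasma membrane. All 10 symbols were found in all 6 tables.

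In the brain, astrocytes are the main site of serine synthesis from glucose, because neurons hold little of its first enzyme. Serine feeds the folate one-carbon cycle, phospholipid and sphingolipid synthesis, and the pool of D-serine and glycine that acts as co-agonist at NMDA receptors. Glycine is cleared by transport into astrocytes and by the glycine cleavage system, a mitochondrial complex of several proteins. ASCT1 exchanges serine across membranes, and its loss in humans disturbs brain development.

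The study, whose title concerns inhibitory input and astrocyte morphogenesis, holds 48 libraries in 15 groups from cortex, hippocampus and olfactory bulb. Postnatal day 1 (P1), day 7 (P7) and day 14 (P14) astrocytes carry no genotype label: cortex has 3, 3 and 4 libraries, and the other regions have 3 at each age. At P28, libraries labelled Gabbr1 control are set against Gabbr1 cKO (a conditional knockout of a subunit of the GABA-B receptor), with 4 and 4 cortical, 2 and 4 hippocampal and 3 and 3 olfactory bulb libraries. The label tamoxifen stands on both genotypes in hippocampus and olfactory bulb and on control replicates 3 and 4 and cKO replicate 4 of cortex, but not on the other cortical libraries. The labels name no Cre driver, strain or sex, and do not say whether libraries came from separate animals, so p-values measure the spread between libraries, which may be partly technical.

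Where 3 values or counts are given together without region names, they stand in the order cortex, hippocampus, olfactory bulb. Values are normalized read counts, a gene's reads divided by 1 factor per library. Libraries of P1 to P14 held between 1773226 and 15008466 reads in genes, and those of P28 between 1859933 and 6352384. The ribosomal RNA precursor Rn45s took 13.7% to 38% of reads, except in cKO replicate 2 of hippocampus (0.594%) and control replicate 2 of olfactory bulb (0.476%) at P28. The targeted gene Gabbr1 stood at 1746, 1930.1, 1159 and 927 in cortical controls and 89.8, 96.5, 134 and 211 in cortical cKO libraries. It was also lower without overlap in hippocampus and olfactory bulb, at -1.84 and -1.48 on the log2 scale, where its adjusted p did not pass (limma, 0.936 and 0.877).

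The labelled cell type was checked with 10 astrocyte markers, including Slc1a2, Aqp4 and Gjb6. Their summed normalized count lay between 23452 and 30859 at P1 and between 519783 and 576699 at P14 in cortex. In olfactory bulb it lay between 5769.6 and 7961 at P1 and between 145345 and 160600.0 at P14. Over the same interval the sum of 11 neuronal markers went from between 7586 and 10759.8 to between 287 and 546 in cortex, and from between 15168 and 18567 to between 2016 and 3188 in olfactory bulb. Oligodendrocyte markers were called higher at P14 than at P1 in 6 of 7, 4 of 4 and 4 of 4 tested cases. For microglia markers this was 9 of 9, 4 of 6 and 4 of 5. Endothelial markers were called higher in 2 of 8, 1 of 7 and 7 of 7 and lower in 0, 2 and 0. Their median log2 difference in hippocampus was -1.64. Of all tested genes 24%, 21% and 24.8% were called higher and 40.3%, 28.5% and 31.4% lower. The 6 choroid plexus markers summed to between 29.8 and 124 in hippocampus at P1 and between 4142 and 8583 at P14. The part of these markers in the results below was not tested. In bulk samples, fewer cells of a type and less RNA per cell cannot be told apart.

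Promoters of 3 members are shown because these genes carry the main age patterns described below: Psat1 and Gldc rose from P1 to P14 in every region, and Slc1a4 was highest at P7 in cortex and hippocampus. All 10 members matched the RefSeq promoter table (GRCm38.p6, the build also called mm10), which holds 300 bases per start site, 250 before it and 50 from it on. Psat1 has 2 listed start sites and Slc6a9 has 3, and the first Psat1 site is printed. Each sequence below runs 5′ to 3′ on the minus strand, from 250 bases before the start to 30 bases from it on, for a length of 280 bases. Capitals mark CCAAT on either strand (the CCAAT box) and TGATGNAA on either strand (the C/EBP-ATF response element). The 3 windows are chr19:15925030-15925309, chr19:30175412-30175691 and chr11:20332684-20332963.
Psat1: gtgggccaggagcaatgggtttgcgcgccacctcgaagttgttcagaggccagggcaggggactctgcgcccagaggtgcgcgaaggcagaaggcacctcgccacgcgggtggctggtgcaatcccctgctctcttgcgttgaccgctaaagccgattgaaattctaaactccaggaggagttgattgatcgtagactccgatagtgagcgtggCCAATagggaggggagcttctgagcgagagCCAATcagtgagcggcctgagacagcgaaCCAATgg
Gldc: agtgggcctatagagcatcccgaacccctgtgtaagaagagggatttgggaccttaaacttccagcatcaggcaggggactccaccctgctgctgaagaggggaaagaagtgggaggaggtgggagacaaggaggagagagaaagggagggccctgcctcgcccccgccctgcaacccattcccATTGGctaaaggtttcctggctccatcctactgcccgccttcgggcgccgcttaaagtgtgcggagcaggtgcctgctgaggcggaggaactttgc
Slc1a4: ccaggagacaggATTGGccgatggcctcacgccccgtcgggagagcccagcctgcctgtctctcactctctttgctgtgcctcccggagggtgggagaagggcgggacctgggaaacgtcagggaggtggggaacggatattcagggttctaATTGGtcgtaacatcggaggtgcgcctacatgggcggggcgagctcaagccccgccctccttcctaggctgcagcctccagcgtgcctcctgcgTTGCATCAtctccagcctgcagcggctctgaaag
CCAAT letters occurred in the 300-base window of 7 of 10 members (Phgdh, Psat1, Psph, Shmt1, Gldc, Amt and Slc1a4), which is 7 of their 13 windows, against 37.4% of 32851 mouse windows. Psat1 holds 3 of them, starting 36 and 6 bases before and 23 bases after the start site, while Gldc holds 1 and Slc1a4 holds 2. TGATGNAA occurred in Slc1a4 alone among the members, as its reverse complement beginning 4 bases before the start site, against 3.97% of all windows. The 2 motifs do not overlap in these windows. A match of letters describes the sequence and does not show that a factor binds there.

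The first question was how these genes change as astrocytes mature. Between P1 and P14, Psat1, Srr and Gldc rose in all 3 regions, by 2.08-fold for Srr in cortex up to 9.19-fold for Gldc in olfactory bulb. Phgdh, Psph and Slc6a9 rose in hippocampus and olfactory bulb, and Slc1a4 rose in olfactory bulb. Slc1a4 rose 2.09-fold and 2.01-fold by P7 in cortex and hippocampus and fell again by P14. Shmt1 fell in hippocampus, on few reads. Shmt2 and Amt passed no comparison between ages with limma under the deposited scaling.

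A gene was tested where its mean over the table's libraries reached a normalized count of 10, with limma on log2(normalized count + 1) and adjustment over all tested genes. From P1 to P14, 3 of 9 tested members rose and 0 fell in cortex, where 64.4% of all tested genes were called in either direction, 24% higher and 40.3% lower. In hippocampus 6 of 10 rose and 1 fell, beside 49.5% called in either direction, 21% higher and 28.5% lower. The fall is that of Shmt1, which reached the filter only through its P1 libraries, so it supports nothing about the group. In olfactory bulb 7 of 9 rose and 0 fell, beside 56.1% called in either direction, 24.8% higher and 31.4% lower. The median log2 difference of the tested members was 0.30, 1.16 and 1.52 in the 3 regions, against -0.27, -0.29 and -0.24 over all tested genes. Shmt1 was under the filter in cortex and olfactory bulb.

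The cortical count depended on how libraries were scaled. The deposited scaling puts the median cortical gene at -0.27 from P1 to P14, and TMM scaling puts it at 0.01. Under TMM 8 of 9 members were called higher, and the split over all genes went from 2843 higher and 4765 lower to 3796 and 3646. Relative to the median gene of the deposited scaling, Phgdh differed by 0.25, Psph by 0.41, Slc1a4 by 0.29 and Slc6a9 by 0.43. All-gene splits of the shorter cortical steps moved likewise, from 1850 higher and 2135 lower to 2160 and 1614 for P7 against P1, and from 2197 and 3696 to 3019 and 2692 for P14 against P7. Quantile normalization moved the median gene of hippocampus from -0.29 to -0.03 for P14 against P1. Psat1, Srr and Gldc kept their calls in all 3 regions under each scaling tried.

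**Figure D1:**
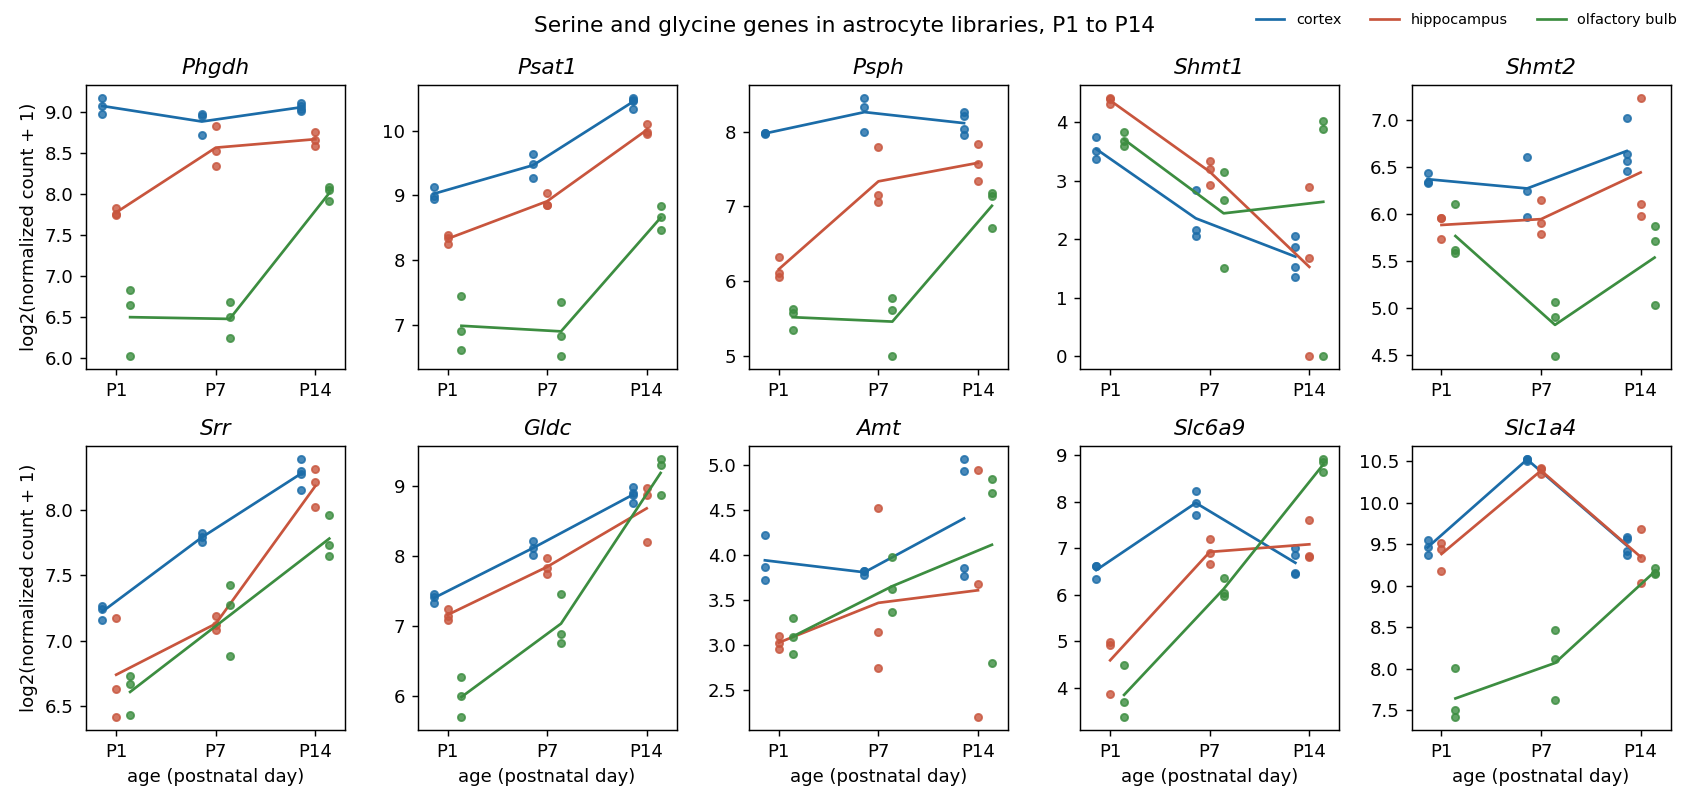
Each panel plots log2(normalized count + 1) of 1 gene against age, with a dot per library and a line through the group means of cortex, hippocampus and olfactory bulb, which were normalized separately. Psat1, Srr and Gldc rise in each region, Slc1a4 peaks at P7 in cortex and hippocampus, and Shmt1 includes libraries at 0.

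Psat1 encodes phosphoserine aminotransferase, the middle enzyme of serine synthesis (chr19:15904678-15947337, minus strand, in the GENCODE annotation of GRCm38). Its normalized counts in cortex were 559, 509 and 492 at P1, 618, 794 and 719 at P7 and 1424, 1456, 1287 and 1415 at P14. Hippocampal libraries held 335, 323 and 304, then 459, 459 and 524, then 1102, 988 and 1007. In both regions each age lay above the one before without overlap, and the log2 rise from P1 to P14 was 1.42 (SE 0.097, adjusted p = 3.21e-08) in cortex and 1.68 (SE 0.12, adjusted p = 6.87e-07) in hippocampus. In olfactory bulb, Psat1 stood at 96.4, 118 and 173 at P1 and 112, 162 and 90.2 at P7. Those groups overlapped, and P14 libraries were higher, at 352, 404 and 457. Its olfactory bulb rise of 1.67 (SE 0.26, adjusted p = 2.80e-04) thus came after P7.

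Phgdh, phosphoglycerate dehydrogenase, is the first enzyme of the pathway (chr3:98313170-98339990, minus strand), and the annotation also holds a pseudogene of it that could share reads. Cortical counts were 505, 539.7 and 579 at P1, 498, 505 and 421 at P7 and 527, 553, 541 and 518 at P14. These P1 and P14 groups overlapped, with a log2 difference of -0.02 (SE 0.093, adjusted p = 0.895) under the deposited scaling, while TMM scaling gave 0.26 and a call (adjusted p = 0.0246). Hippocampus went from 215, 228 and 213 at P1 to 324, 369 and 455 at P7 and 432, 406 and 385 at P14. Here the rise lay before P7, at 0.79 (SE 0.16, adjusted p = 0.00421), and the later step was 0.10 (SE 0.16, adjusted p = 0.659). In olfactory bulb the larger step came after P7, with 63.8, 99.1 and 113 at P1, 89.7, 102 and 74.8 at P7 and 270.3, 239.8 and 264 at P14. Its first step was -0.02 (SE 0.24, adjusted p = 0.975) and its second 1.54 (SE 0.24, adjusted p = 3.51e-04).

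Psph, phosphoserine phosphatase, completes serine synthesis (chr5:129765558-129787449, minus strand). In hippocampus it stood at 65.2, 67.7 and 79.3 at P1, 132, 141 and 220.5 at P7 and 161, 189 and 228 at P14, a rise of 1.42 (SE 0.25, adjusted p = 5.47e-04) of which 1.18 lay before P7. Olfactory bulb held 46.6, 39.6 and 48.5, then 53.5, 47.9 and 30.8, then 103, 139 and 144, a rise of 1.49 (SE 0.28, adjusted p = 8.97e-04) that lay after P7. Cortical libraries ranged from 248 to 253 at P1 and 246 to 305 at P14 and did not pass the test (0.14, SE 0.12, adjusted p = 0.34), although TMM scaling called 0.42 (adjusted p = 0.00999). Psph shares 452 exon bases with Cct6a on the other strand, a chaperonin subunit. Whether reads were counted by strand is not given in the sources used here, and Cct6a differed by -0.84, -0.50 and -0.73 from P1 to P14. Its part in the Psph values was not tested.

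Per kilobase of exon, the synthesis enzymes were among the highest members. At P1 in cortex Phgdh led with 286 ± 19.6 normalized counts per kilobase (SD, n = 3), followed by Slc1a4 with 179.6 ± 11.7 and Psat1 with 177 ± 11.9, which did not differ beyond their spread. At P14 in cortex Psat1 led with 475 ± 25.3 (n = 4), above Phgdh with 282 ± 8.3. Slc1a4 with 183 ± 13.2 and Psph with 159.8 ± 15.9 came next, within each other's spread. Hippocampus at P14 had the same first 3, at 352 ± 20.8, 215 ± 12.4 and 169 ± 38.3 (n = 3), the last 2 within their spread. In olfactory bulb at P14, Gldc with 156 ± 28.1, Slc1a4 with 146 ± 4, Psat1 with 138 ± 17.9, Phgdh with 136 ± 8.48 and Slc6a9 with 121 ± 12.4 formed a close group. Shmt1 and Amt were the lowest 2 in each region at P14, at 0.808 ± 0.252 and 10.6 ± 5.02 in cortex.

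Serine is exchanged with glycine by serine hydroxymethyltransferases, which pass a carbon to folate. Shmt2, the mitochondrial form (chr10:127517123-127522444, minus strand), held 85.5, 79.8 and 80.3 in cortex at P1 and 99.1, 129.5, 86.7 and 93.5 at P14. No comparison of Shmt2 between ages passed under the deposited scaling, and its P1 to P14 difference was 0.30 (SE 0.19, adjusted p = 0.17), 0.56 (SE 0.35, adjusted p = 0.204) and -0.23 (SE 0.33, adjusted p = 0.576). P14 lay narrowly above P1 in the first 2 regions. The highest P1 and lowest P14 values were 85.5 and 86.7 in cortex and 61.4 and 62.3 in hippocampus. The share of all genes with this order is not given, so nothing is concluded from it. With TMM scaling the cortical difference was 0.58 and was called (adjusted p = 0.0141).

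Shmt1, the cytosolic form (chr11:60788104-60811718, minus strand), was among the scarcest members. Hippocampal libraries held 19.9, 18.7 and 20.3 at P1, 9.06, 8.13 and 6.62 at P7 and 6.45, 2.21 and 0 at P14, from 33 to 56 reads at P1 and 0 to 6 at P14. These groups did not overlap and the fall was -2.84 (SE 0.73, adjusted p = 0.00681), a call that rested on few reads and was lost with quantile normalization (-1.15, adjusted p = 0.136). Because its mean passed the filter through the P1 libraries, the test in hippocampus was possible only where the gene began high. In cortex, below the filter and untested, Shmt1 went from 9.38, 10.3 and 12.3 at P1 to 2.65, 3.14, 1.89 and 1.56 at P14. Olfactory bulb did not order in this way, with 11.8, 11 and 13.2 at P1 and 0, 13.8 and 15.3 at P14. Shmt1 shares 184 exon bases with Smcr8 on the other strand, whose normalized counts averaged 112, 139.7 and 163 over P1 to P14. Smcr8 also fell in hippocampus, from a mean of 170.4 at P1 to 111 at P14 (log2 difference -0.65, adjusted p = 0.0471), and its part in the Shmt1 values was not tested. A count of 0 here allows up to 3 reads in that library, counting error only.

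The log2 ratio of Shmt2 to Shmt1 within a library does not depend on its scaling factor apart from the added 1. In cortex it was 2.84 ± 0.22 at P1 (SD, n = 3) and 4.97 ± 0.18 at P14 (n = 4), a difference of 2.14 without overlap. An exact two-sided permutation test gave p = 0.0571, the smallest that 4 against 3 libraries allow. Hippocampus had 1.52 ± 0.16 and 4.92 ± 1.6, a difference of 3.40 without overlap (exact permutation p = 0.1, the smallest that 3 against 3 allow), where P14 replicate 3 had 0 Shmt1 reads. With 8 added in place of 1, the difference was 1.14 in cortex and 1.90 in hippocampus, so its size rests on the added value. In olfactory bulb the difference of 0.83 had overlapping groups (exact permutation p = 1.0), and it was 0.13 with 8 added and -0.65 without P14 replicate 1, which had 0 Shmt1 reads.

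Srr encodes serine racemase, which makes D-serine (chr11:74906359-74925948, minus strand). Cortical counts were 142, 153 and 150.1 at P1, 215, 221 and 225 at P7 and 284, 335, 309 and 314 at P14, with no overlap at either step. From P1 to P14 the log2 rise was 1.06 (SE 0.1, adjusted p = 7.89e-07). Hippocampus stood at 97.9, 143 and 84.2, then 134, 138 and 145, then 296, 259 and 317, so that P1 and P7 overlapped and the rise of 1.44 (SE 0.22, adjusted p = 2.05e-04) showed after P7. Olfactory bulb libraries went from 85.3, 105 and 100.4 through 171, 154 and 117 to 248, 199.9 and 211, a rise of 1.17 (SE 0.2, adjusted p = 4.94e-04). Of that rise, the step after P7 (0.59, SE 0.2, adjusted p = 0.0321) was lost under quantile normalization (0.50, adjusted p = 0.0591) and when P7 replicate 2 or 3 or P14 replicate 1 was left out (0.43 to 0.63). Exons of Srr overlap those of Tsr1 on the other strand over 1159 bases, and Tsr1, a ribosome assembly factor, differed by 0.39, -0.16 and 0.40 from P1 to P14. Srr also shares 126 exon bases with Smg6, which differed by -0.99, -0.70 and -0.28. The part of either in the Srr values was not tested.

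Gldc, glycine decarboxylase, carries out the first step of glycine cleavage (chr19:30098447-30175429, minus strand). In olfactory bulb it went from 50.9, 76.2 and 62.9 at P1 to 118, 174 and 107 at P7 and 669.9, 629 and 469 at P14. No library of 1 age overlapped the next, and the rise from P1 to P14 was 3.20 (SE 0.24, adjusted p = 1.39e-06). Cortex held 159, 170.0 and 175, then 276, 298 and 258, then 505, 467, 475 and 432, again without overlap, a rise of 1.48 (SE 0.099, adjusted p = 2.72e-08). Hippocampal values were 135, 141 and 151 at P1, 213, 227 and 249.8 at P7 and 466, 294 and 502 at P14, a rise of 1.52 (SE 0.21, adjusted p = 9.18e-05). The first hippocampal step (0.69, SE 0.21, adjusted p = 0.0387) lost its call when any single P1 or P7 library was left out, with values of 0.62 to 0.74. The olfactory bulb step from P1 to P7 (1.05, SE 0.24, adjusted p = 0.0184) lost its call without P1 replicate 1 or 3 or P7 replicate 2 (0.84 to 1.05).

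Amt, the aminomethyltransferase of the same complex (chr9:108296853-108302302, plus strand), was far scarcer, with 12.2, 13.6 and 17.7 in cortex at P1 and 29.5, 12.6, 32.5 and 13.5 at P14. In olfactory bulb it went from 6.45, 7.49 and 8.82 to 5.96, 24.8 and 27.8, with 1 P14 library below all P1 libraries. No age comparison of Amt passed with limma under the deposited scaling. The olfactory bulb difference from P1 to P14 was 1.02 (SE 0.58, adjusted p = 0.156). It was called by edgeR on the recovered reads at 1.48 (adjusted p = 0.0377), and was 1.68 without P14 replicate 1 (adjusted p = 0.00487). In that region Amt averaged 7.59 at P1, under the minimum mean of the filter, and 19.5 at P14. Amt thus reached the filter through later ages. The direction of these calls is partly fixed by the filter, so no rise is concluded from them.

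The first enzymes of serine synthesis and of glycine cleavage were compared through the log2 ratio of Phgdh to Gldc within each library. In cortex it was 1.68 ± 0.036 at P1 (SD, n = 3), 0.77 ± 0.074 at P7 and 0.19 ± 0.092 at P14 (n = 4). Groups did not overlap, and P14 differed from P1 by -1.49 (exact two-sided permutation p = 0.0571, the smallest possible). Olfactory bulb showed 0.51 ± 0.28, -0.56 ± 0.2 and -1.17 ± 0.3 (n = 3 each), a difference of -1.68 without overlap (exact permutation p = 0.1, the smallest possible). Hippocampus held 0.62 ± 0.11, 0.72 ± 0.13 and -0.01 ± 0.43, with P1 and P7 overlapping, and the difference of -0.63 without overlap came after P7 (exact permutation p = 0.1). Adjusted over the 6 ratio comparisons, each p was 0.12 except that of Shmt2 to Shmt1 in olfactory bulb, and the design could not reach 0.05. This ratio of counts is not corrected for the lengths of the 2 transcripts, so only its change with age can be read.

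**Figure D2:**
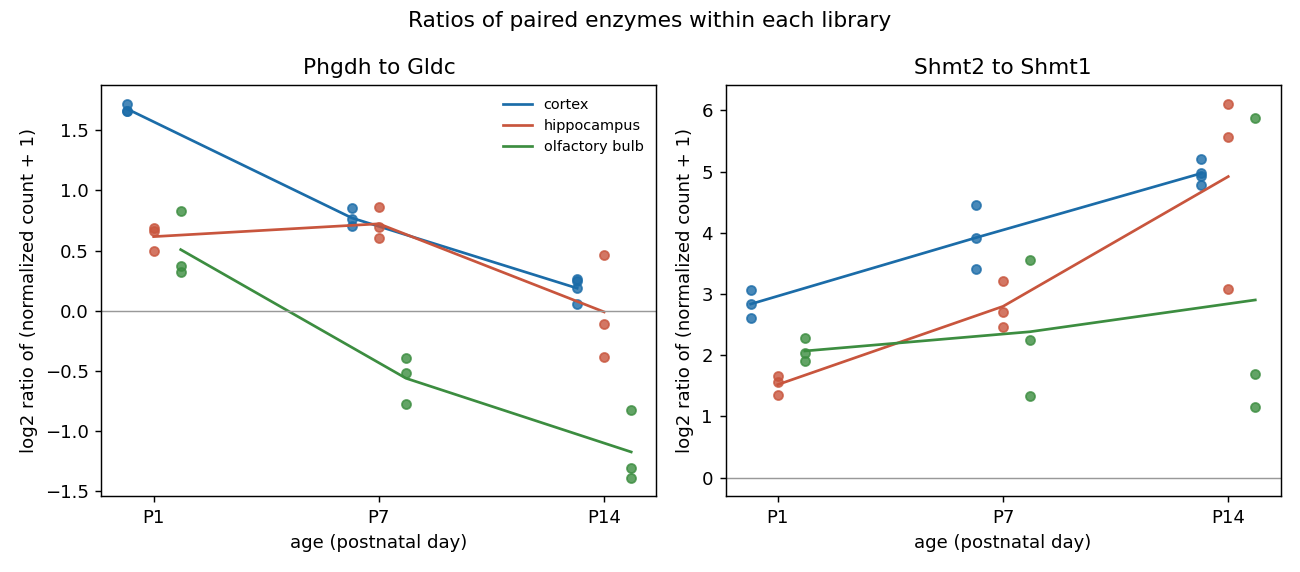
The log2 ratio of 2 genes within a library is plotted against age, with dots for libraries and lines through the means of cortex, hippocampus and olfactory bulb. The ratio of Phgdh to Gldc at P14 lies below P1 in each region, and the ratio of Shmt2 to Shmt1 lies above P1 in cortex and hippocampus and overlaps in olfactory bulb.

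Slc1a4, which exchanges serine and other neutral amino acids (chr11:20302180-20332713, minus strand), had its highest level at P7 in 2 regions. Cortical libraries held 659, 751 and 705 at P1, 1458, 1478 and 1478 at P7 and 686, 767, 661 and 755 at P14. Both steps passed, at 1.06 (SE 0.09, adjusted p = 1.35e-06) and -1.04 (SE 0.084, adjusted p = 6.77e-07), and P14 overlapped P1 (0.02, adjusted p = 0.82). Under TMM scaling both cortical steps remained called, with a called P14 to P1 difference of 0.30 (adjusted p = 0.00652). In hippocampus Slc1a4 stood at 697, 733 and 579, then 1298, 1370.1 and 1355, then 820.1, 644 and 521. These steps were 1.01 (SE 0.16, adjusted p = 0.00113) and -1.04 (SE 0.16, adjusted p = 7.60e-04). Olfactory bulb had no peak at P7: its libraries went from 169, 181 and 255 through 277, 352 and 195 to 592, 562 and 569, and the step after P7 was 1.10 (SE 0.22, adjusted p = 0.00217).

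Slc6a9 encodes GlyT1, which clears glycine (chr4:117834506-117875198, plus strand), and it had the largest P1 to P14 rise of any tested member, in olfactory bulb. Olfactory bulb libraries held 9.32, 11.9 and 21.5 at P1, 62.1, 80.8 and 64.7 at P7 and 394, 459 and 482 at P14. From P1 to P14 this was a rise of 4.95 (SE 0.3, adjusted p = 3.29e-07), or 30.8-fold on the scale of count + 1. Hippocampus went from 13.5, 29.4 and 30.7 to 99.6, 119 and 146 by P7 and stood at 192, 114 and 111 at P14. Its first step was 2.33 (SE 0.36, adjusted p = 9.04e-04) and the second 0.16 (SE 0.36, adjusted p = 0.769), with P7 and P14 overlapping. Cortex peaked at P7, with 96.9, 97.7 and 80.3 at P1, 298, 249 and 209.8 at P7 and 85.5, 86.8, 114 and 127 at P14. Both cortical steps passed, at 1.44 (SE 0.19, adjusted p = 5.94e-05) and -1.29 (SE 0.18, adjusted p = 5.34e-05). Slc6a9 shares 1429 exon bases with Ccdc24 on the other strand, which averaged 4.92, 4.24 and 6.18 normalized counts over P1 to P14.

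By step, 5 of 9 members rose and 0 fell from P1 to P7 in cortex (33.7% of all tested genes called, 15.6% higher and 18.1% lower), and 3 rose and 2 fell from P7 to P14 (49.8% called, 18.6% higher and 31.3% lower). In hippocampus 6 of 10 rose and 0 fell by P7 (18.1% called, 11.2% higher and 6.92% lower), and 3 rose and 1 fell after it (30.1% called, 12.5% higher and 17.7% lower). In olfactory bulb 2 of 9 rose by P7 (10.6% called, 7.59% higher and 2.98% lower), namely Gldc and Slc6a9, and 7 rose after it (47% called, 20.4% higher and 26.6% lower). DESeq2 called 4 at the first olfactory bulb step, adding Srr (0.62, adjusted p = 0.0212) and Shmt2 in the lower direction (-0.94, adjusted p = 0.0292). It also called more of all 11490 tested genes at that step, 2260 against 1214 with limma. The 3 age comparisons within a region share libraries, so they are not independent. Regions were fitted in separate tables, and the difference in timing between them was not tested.

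**Figure D3:**
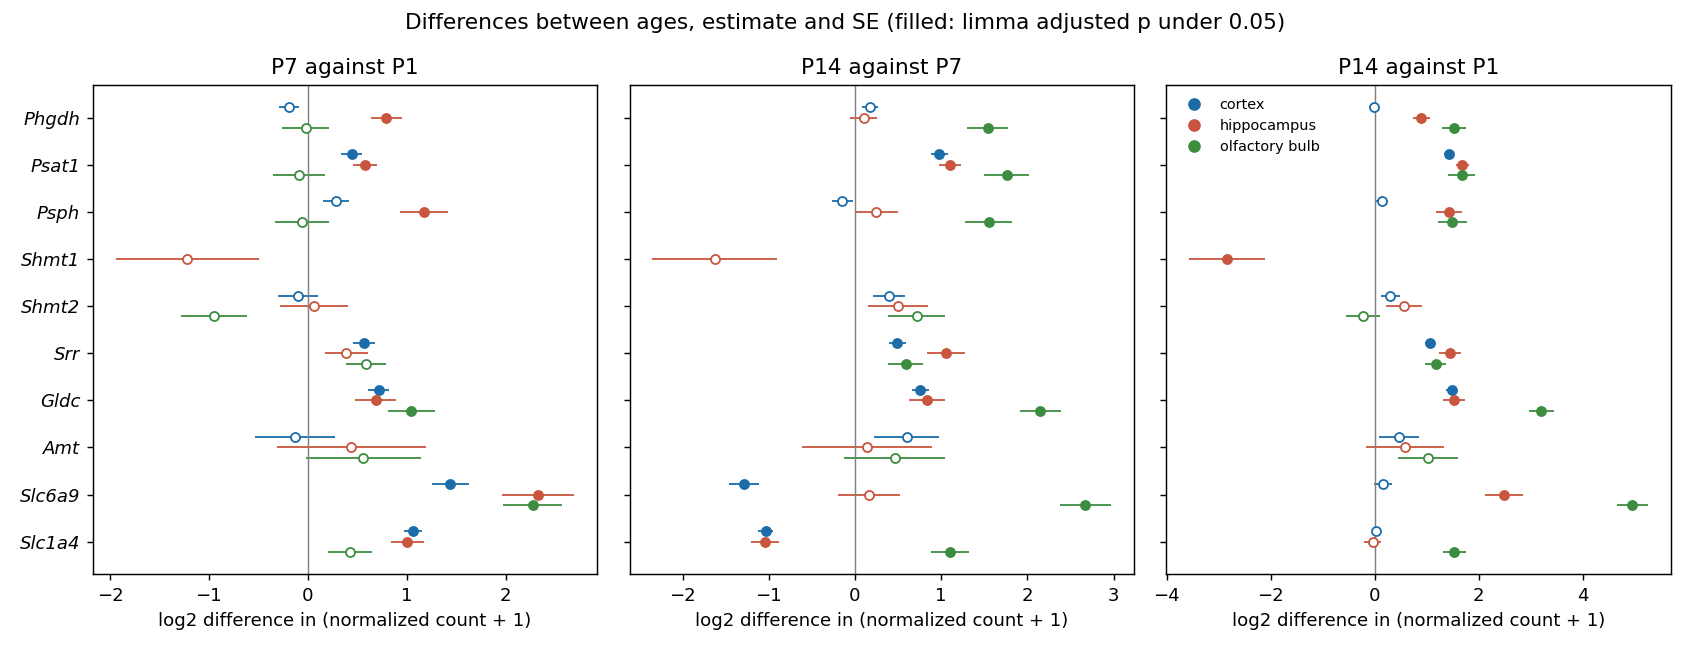
Each dot is the log2 difference of 1 gene between 2 ages in 1 region, with its SE from limma, and is filled where the adjusted p is under 0.05. Filled dots sit to the right of 0 for Psat1, Srr and Gldc in all 3 regions for P14 against P1, and Slc1a4 of cortex and hippocampus sits on opposite sides of 0 in the first 2 panels.

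Among themselves the members fell into different profiles, which is described here by Pearson correlations of log2 values over the libraries of a region (10, 9 and 9), with no test because the libraries share ages. Psat1 and Gldc had r = 0.96, 0.95 and 0.89, and Srr and Gldc had 0.98, 0.91 and 0.94. Phgdh and Psph had r = 0.95 in hippocampus and 0.92 in olfactory bulb and -0.09 in cortex. Slc6a9 and Slc1a4 had 0.93, 0.41 and 0.94.

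Genes most like a member were named by their smallest r over the 3 regions among 10434 genes. For Psat1 these were Acsl3 (0.97), an acyl-CoA synthetase, Rorb (0.96), a nuclear receptor, and Sccpdh (0.96). Gldc was followed most closely by Smpdl3a, Dynlt3 and Hadha (0.97, 0.97 and 0.97), the last a subunit of the mitochondrial fatty acid oxidation complex. Srr went with Gprc5b, Fam163a and Purb (0.97, 0.97 and 0.96). Slc1a4 was less closely matched, by Ctsc (0.91), a lysosomal protease, then Abca1 (0.80), a cholesterol transporter, and Emid1 (0.77). Slc6a9 went with Spon1, Npas3 and Angpt1 (0.89, 0.89 and 0.89), and Phgdh with Zcchc24, Abhd4 and Traf3 (0.86, 0.82 and 0.81). Among the genes closest to Psph were Cdc42 (0.78) and Nxt2 (0.77). For Shmt2 the closest were Phf2, Vapb and Tm2d2 (0.70, 0.67 and 0.64), and for Amt they were Def8, Nelfe and Tmem243 (0.64, 0.64 and 0.62).

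Neighbouring genes were read from lists of the same pathway. Over all tested genes 24%, 21% and 24.8% were called higher and 40.3%, 28.5% and 31.4% lower from P1 to P14, with medians of -0.27, -0.29 and -0.24, and several of the counts below lie near these shares. A gene whose mean at 1 age lies under 10 reached the filter through another age at which it was high, so its direction is partly fixed by the filter. Of the partners of Gldc and Amt and other enzymes that break down glycine, sarcosine or D-amino acids, 5 of 5, 3 of 4 and 4 of 4 tested genes rose from P1 to P14, with medians of 1.56, 1.83 and 2.46. Gcsh, the lipoyl carrier of the glycine cleavage system, rose by 1.56, 2.26 and 2.90. Sardh, sarcosine dehydrogenase, rose by 1.97, 3.23 and 2.02, and Dld, the dihydrolipoamide dehydrogenase shared with other complexes, by 1.06, 1.40 and 1.03. Ddo, D-aspartate oxidase, rose by 3.87 in cortex and 5.03 in olfactory bulb from P1 means of 4.17 and 3.12, and did not pass in hippocampus (0.79). Ddo, and Gcat in cortex, were under 10 at P1 and are such genes. Others are among the changes given below, including Slc7a10 in olfactory bulb and Grin2c in cortex (low at P1) and Serinc2 and Glra2 in every region (low at P14).

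Other carriers of serine and glycine divided. Of 9, 8 and 9 tested genes 3, 3 and 4 rose and 3, 3 and 2 fell, with medians of 0.35, -0.29 and 0.75. Slc7a10, the Asc-1 exchanger of small neutral amino acids including D-serine, rose by 3.26, 4.14 and 4.53, from P1 means of 23.6, 15.4 and 4.26 to P14 means of 234, 291 and 124. Slc38a3 (SNAT3, a glutamine carrier) rose by 1.59, 2.20 and 4.94, and Sfxn1, a mitochondrial serine transporter, by 0.38, 1.60 and 1.25. The system A carriers went the other way: Slc38a1 fell (-2.52, -3.23 and -3.33), and Slc38a2 fell (-2.40, -3.38 and -2.42). Slc7a8 fell in hippocampus (-3.58) and was not called in cortex (0.35) or olfactory bulb (0.75).

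Of 14, 13 and 14 tested folate one-carbon genes 3, 3 and 5 rose and 8, 6 and 5 fell, with medians of -1.03, -0.44 and -0.79. Aldh1l1, the cytosolic formyltetrahydrofolate dehydrogenase and also counted as an astrocyte marker, rose by 0.45, 1.97 and 1.49, whereas its mitochondrial relative Aldh1l2 fell (-2.86, -2.24 and -2.54). Likewise the cytosolic Mthfd1 rose by 0.59, 1.12 and 1.35, and the mitochondrial Mthfd1l fell (-1.44, -3.36 and -2.06). Tyms, thymidylate synthase, fell in cortex (-2.07) and hippocampus (-3.08) and did not pass in olfactory bulb (-0.92). Mthfd2, another mitochondrial enzyme, fell in cortex (-2.07) and olfactory bulb (-2.38). Proliferation genes fell over the same interval in 7 of 7, 7 of 8 and 4 of 7 tested cases, and their part in these folate values was not tested.

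Where serine meets the methionine cycle, 3 of 8, 3 of 9 and 2 of 7 tested genes rose and 1, 0 and 1 fell, with medians of 0.16, 0.37 and -0.22. Cbs, which joins serine to homocysteine, rose by 0.88, 1.52 and 3.01, and Cth, the next enzyme, by 2.82 in cortex and 3.88 in hippocampus. Ahcyl1, a relative of adenosylhomocysteinase, rose by 2.38, 2.80 and 2.57. Among genes of serine-derived lipids, 5, 3 and 2 of 8 rose and 2, 3 and 1 fell, with medians of 0.87, 0.40 and 0.32. Ptdss1, phosphatidylserine synthase, rose by 1.23, 1.31 and 1.35, and Serinc3 by 1.07, 1.17 and 1.64. Serinc2 fell from P1 means of 42.1, 66.3 and 43.8 to P14 means of 2.17, 1.83 and 0.663. Serinc5 fell in hippocampus (-1.56).

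The amino acid stress response includes serine synthesis genes in many cells. Of 7, 5 and 5 tested genes of this response 2, 0 and 0 rose and 3, 1 and 2 fell, with medians of -0.14, -0.68 and -0.89. Asns, asparagine synthetase, fell (-2.50, -2.45 and -4.94). Atf4, the transcription factor of the response, fell in olfactory bulb (-1.96) and was not called in cortex (-0.14) or hippocampus (-0.68), while Nupr1 rose in cortex by 2.92. Subunits of glycine and NMDA receptors split, with 3, 3 and 4 of 7, 7 and 8 tested genes higher and 4, 2 and 2 lower. Their medians were -3.06, -0.15 and 0.87. This list holds NMDA receptor subunits beside glycine receptor subunits, and not all of them bind glycine. Grin2c, an NMDA receptor subunit, rose by 7.50, 4.68 and 3.21, reaching 641 ± 62.5 in cortex (SD, n = 4). Its cortical P1 level lay under the minimum mean of the filter, so the direction there is partly fixed by the filter. Glra2, a glycine receptor subunit, fell from P1 means of 98.7, 17.5 and 31.2 to 0.858, 1.79 and 2.3, in the same libraries in which neuronal markers were lower. Glra4 rose in olfactory bulb by 4.16.

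**Figure D4:**
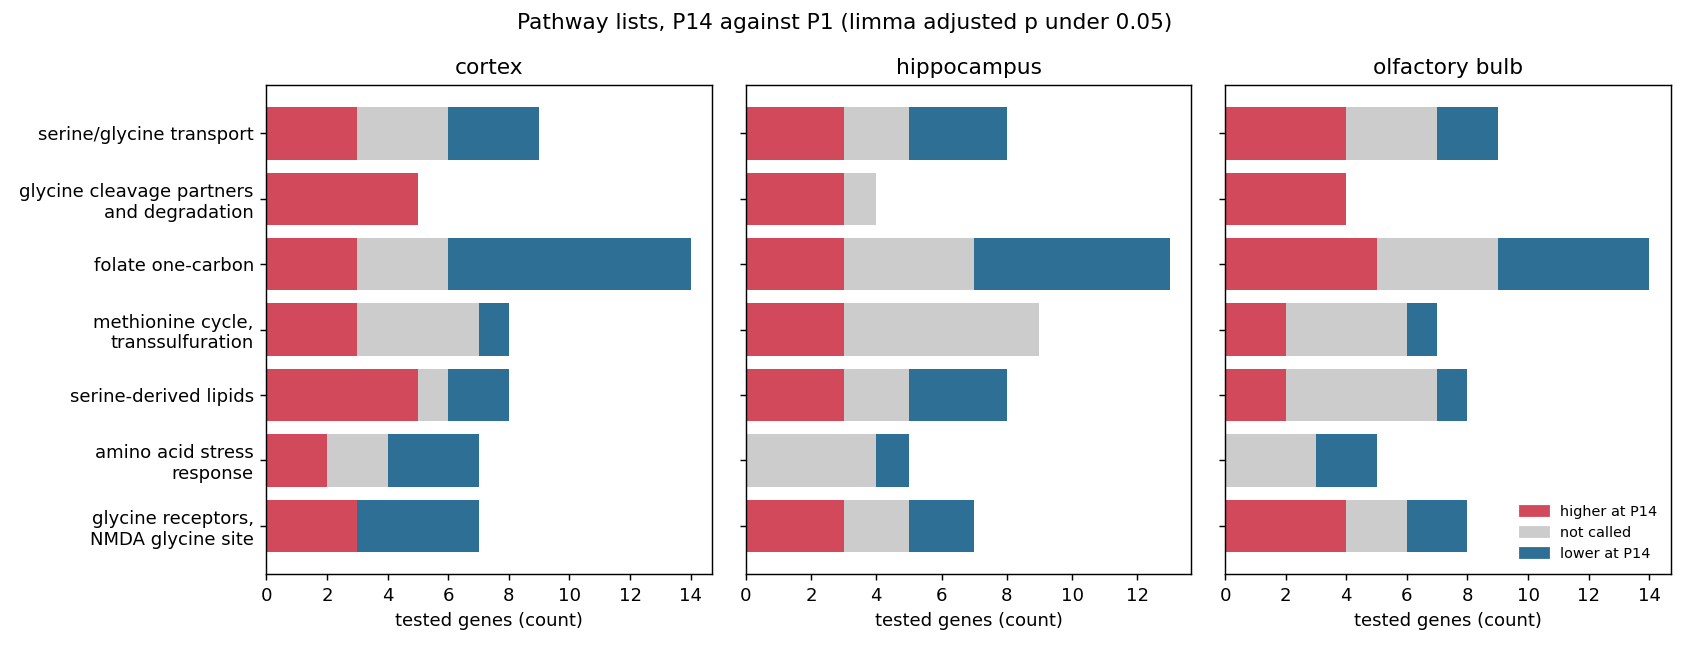
Bars count the tested genes of 7 pathway lists that were higher, not called or lower in P14 against P1 libraries of each region (limma, adjusted p under 0.05). No gene of the glycine cleavage and degradation list was lower in any region, and the folate list holds 8, 6 and 5 lower genes.

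The second question was whether loss of Gabbr1 changes these genes at P28. None of the tested members was called by limma in cortex (0 of 9), hippocampus (0 of 10) or olfactory bulb (0 of 9), beside 0.00982%, 0% and 0% of all tested genes called. At an unadjusted p under 0.05 the members were 0, 1 and 1, beside 2.17%, 2.54% and 3.02% of all genes, and edgeR and DESeq2 called 0 members in each region. The median log2 difference of the tested members was -0.04, 0.17 and 0.11, against 0.00, -0.04 and 0.02 over all genes. With 2 hippocampal controls and 3 or 4 libraries in other groups, these values do not show that the genotypes are alike.

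Slc1a4 had the lowest unadjusted p among the members. Hippocampal controls held 214 and 311 and cKO libraries 567, 869.5, 547 and 658, so that all 4 cKO libraries lay above both controls. The log2 difference was 1.33 (SE 0.31, unadjusted p = 0.00162, adjusted p = 0.936, limma). Non-overlap in this direction occurred in 7.08% of hippocampal genes. Without cKO replicate 2, the library low in Rn45s, the difference was 1.19, and over all alternatives the adjusted p ranged from 0.178 (DESeq2) to 1.0. Choroid plexus markers summed to between 69998 and 142121 in these controls and between 12168 and 129148 in cKO. Microglia markers summed to between 127 and 163 in controls and between 177 and 863 in cKO, without overlap (median log2 difference 1.65 over 6 tested markers, 0 called). Oligodendrocyte markers overlapped, with a median difference of 0.86. The part of these markers in the Slc1a4 values was not tested.

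In cortex, Slc1a4 stood at 262, 236, 573 and 572 in controls and 356, 529.7, 511 and 622 in cKO libraries. The 3 libraries that carry the tamoxifen label, control replicates 3 and 4 and cKO replicate 4, are the 3 highest. They also differ from the other cortical libraries in the style of their titles and lie in a separate block of accession numbers, taken here as a deposit round, so the label and the round cannot be told apart. The difference was 0.39 (SE 0.3, adjusted p = 1), and 0.61 (adjusted p = 0.743) with the deposit round as a covariate. Leaving out 1 control moved it, to 0.21 without replicate 1, 0.16 without replicate 2, and 0.59 without replicate 3 or 4. Among libraries without the label the 3 cKO values lay above the 2 controls, and among those with it the cKO value lay above both controls. The share of all genes with this order was not counted, and the unsplit groups overlapped, so nothing is concluded from it. Olfactory bulb controls held 442, 434 and 745 and cKO libraries 688, 684 and 1014, overlapping, with a difference of 0.58 (SE 0.28, adjusted p = 0.877).

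Slc6a9 in olfactory bulb stood at 688, 458 and 586 in controls and 867, 769 and 971 in cKO libraries, without overlap, as did 5.3% of genes in that direction. Its difference was 0.60 (SE 0.23, unadjusted p = 0.0251, adjusted p = 0.877, limma), and the control lowest in Rn45s was also the lowest in Slc6a9. In hippocampus and cortex Slc6a9 overlapped, at 0.18 and -0.13. The synthesis enzymes overlapped between genotypes in each region: Psat1 differed by -0.16, 0.53 and -0.07 and Phgdh by 0.06, 0.16 and 0.42. Psph differed by -0.04, 0.34 and -0.52. Srr and Gldc also overlapped, with differences between -0.12 and 0.09 for Srr and between -0.01 and 0.45 for Gldc. Shmt2 ranged from -0.48 in hippocampus to 0.11 in olfactory bulb.

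The scarcest members were the most variable at P28. Amt held 68 and 35.6 in hippocampal controls and 42.6, 20.2, 8.78 and 14.6 in cKO, a difference of -1.37 (SE 0.74, adjusted p = 0.936), and it ran from 2.11 to 32.7 in cortical controls. Shmt1 was tested in hippocampus only, at 19.6 and 18.7 in controls and 22.3, 4.33, 12.8 and 6.16 in cKO, a difference of -0.94 (SE 0.92, adjusted p = 0.936). In the other 2 regions it was under the filter, with 2 cortical controls and 1 olfactory bulb control at 0. No gene of the neighbouring pathway lists was called at P28.

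**Figure D5:**
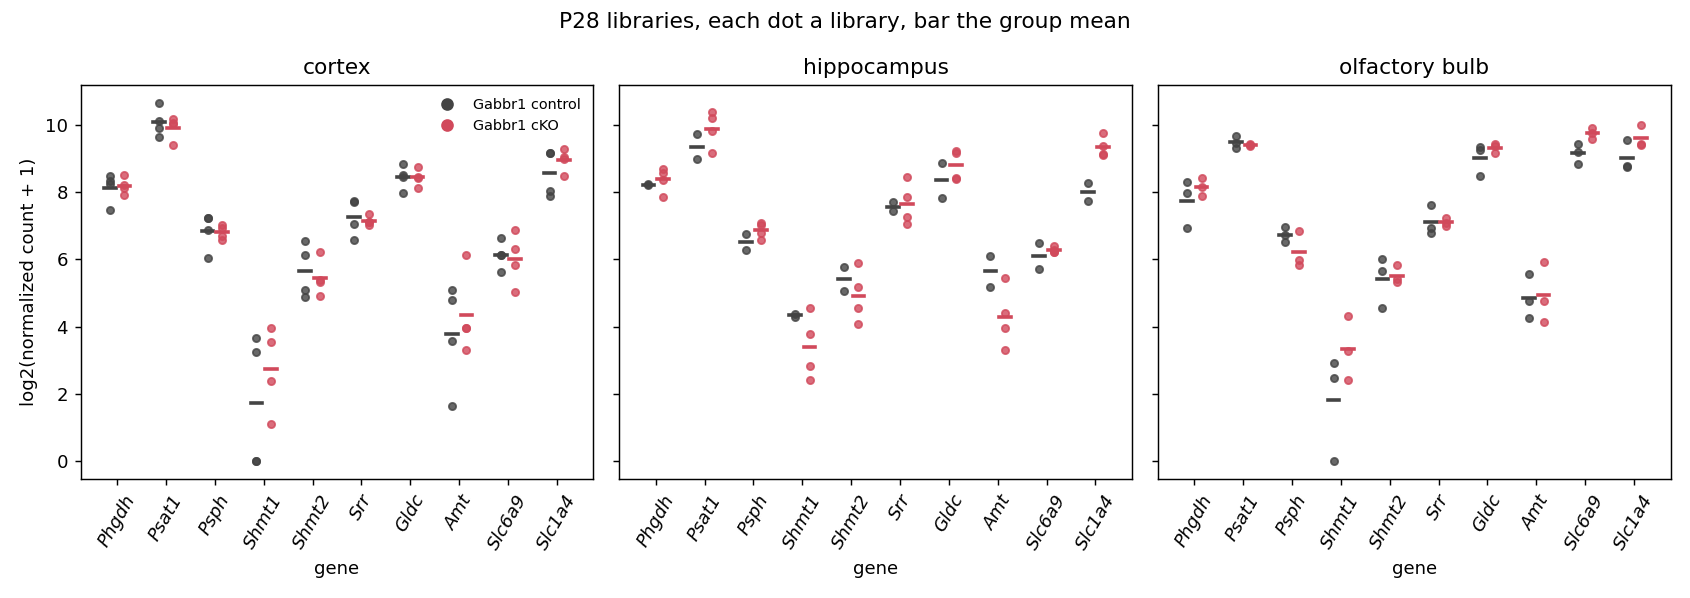
Log2(normalized count + 1) of the 10 genes is plotted for control and cKO libraries at P28, with a dot per library and a bar at the group mean. Genotypes overlap for most genes, while Slc1a4 in hippocampus and Slc6a9 in olfactory bulb show cKO dots above all control dots without passing the adjusted test.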

How the data were processed

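RNA-seq libraries of dissociated astrocytes were made with the Trio low-input kit from 500 pg to 1 ng of total RNA, per the labels' protocols. STAR 2.5.0a, DESeq2 1.20.0, FastQC and MultiQC and the build mm10 are named in the submitters' processing notes, while the counting program, its strand setting and the annotation are not given in the sources used here. The authors deposited 6 tables of normalized signal per gene, 1 for P1 to P14 and 1 for P28 in each region. Each value is a read count divided by 1 factor per library: whole reads were recovered for 100% of values within 0.1 read. For olfactory bulb P28 cKO replicate 2 a separate check did not accept the recovered step, so its reads are less certain. A set of 27 symbols had turned into dates in each of 5 tables, none of a member.

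Genes with a mean of at least 10 per table were tested with limma 3.58.1 (R 4.3.3) on log2(value + 1), with a mean-variance trend, the 3 ages of a region in 1 fit, and Benjamini-Hochberg adjustment over the table at 0.05. A log2 difference understates the change of low genes. Ratios within a library used exact permutation tests in scipy 1.17.1. The script was tested on simulated data, where it recovered 97.9% to 100% of 4-fold changes, with up to 6.57% of calls false (olfactory bulb at P28). The simulated counts had the same relative spread for every gene and no differences in cell make-up between libraries. These rates therefore check the script and do not give the power in the real libraries, where Gabbr1 itself was not called in hippocampus or olfactory bulb. Alternatives were pseudocounts of 0.1 and 8, no filter and a minimum of 100, TMM, quantile and median-ratio scaling, edgeR 4.0.16 and DESeq2 1.42.0 on recovered reads, each library left out, and, in cortex at P28, the deposit round as covariate, which coincides with the tamoxifen label. On the recovered reads edgeR called 7408, 5469 and 6399 of all genes between P1 and P14, where limma called 7608, 5732 and 6449. Libraries were grouped by their labelled region, age and, at P28, genotype. Numbers given to libraries only name them. Comparisons were made only within a table, since tables were normalized separately.

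All 10 members are named, with the 2 genes of each pathway list with the largest called P14 to P1 change per region, the 3 genes most like each member in log2 level, and Gabbr1. A gene that this rule names is not reported here. Marker lists are given by sums and counts in place of their leading genes. A few further list genes called in every region (Sfxn1, Slc38a2, Dld, Aldh1l1, Mthfd1) were named after their values were seen. The members and lists were chosen with earlier results of these data known. Gene coordinates and exon lengths come from GENCODE for GRCm38 and promoters from RefSeq.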

Additional observations from a re-analysis of the deposited data

Results flagged for a closer look

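Amt in cortex at P28 had 1 library far from the rest: cKO replicate 1 stood at a normalized count of 68.44, against 14.7, 8.79 and 14.4 in the other cKO libraries. This was the only such case in 40 sets of 4 values examined, 1 set per gene and group of 4 libraries. Chance gives about 1 in 20 sets, so 1 case in 40 is no more than chance gives.

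Slc6a9 moved in opposite directions from P7 to P14 in 2 regions, with a log2 difference of -1.29 in cortex and 2.67 in olfactory bulb, and the libraries of the 2 ages did not overlap in either. Slc1a4 likewise differed by -1.04 in cortex and -1.04 in hippocampus and by 1.1 in olfactory bulb. Because the regions were normalized in separate tables, these differences between regions were not tested.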

How the results depend on the processing

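For P14 against P1 in cortex, the 3 members called under the deposited scaling became 8 with TMM scaling, 6 with quantile normalization and 7 with median-ratio scaling. With edgeR they became 6 and with DESeq2 7, all called higher, as the median gene moved from -0.27 to about 0. Of all 11822 tested genes, those called higher went from 2843 to 3796, 3804, 3681, 3592 and 3728 in the same order of settings. Phgdh in that comparison changed sign, to 0.26 with TMM scaling (adjusted p = 0.0246) and 0.24 with median-ratio scaling (adjusted p = 0.0461). For P7 against P1 in olfactory bulb, 2 members became 4 with DESeq2 and 1 to 3 when libraries were left out in turn. The ratio of Shmt2 to Shmt1 depended on the added value, as given above. The other counts of called members stayed within 1.5 times under every alternative. Over all genes, limma's 1214 calls for P7 against P1 in olfactory bulb became 2260 with DESeq2 and as few as 517 without P7 replicate 2, and 0 calls at P28 became 22 with DESeq2 in olfactory bulb. Requiring a mean of 100 lowered the P14 to P1 calls to 3986, 3256 and 3413, with fewer genes tested. Hippocampal calls fell from 2092 to 1356 for P7 against P1 without P1 replicate 3, and from 3489 to 2046 for P14 against P7 without P7 replicate 2. Single genes lost their call in 15 cases and gained one without a change of sign in 47, and no gene called under the deposited scaling changed sign. Some uncalled differences near 0 did. The low counts of Shmt1 and Amt limit what can be detected for them. No paired analysis was made, because the labels do not link a library of 1 age or genotype to a library of another.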
